A study of Bos taurus with 6 samples.

Results

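Of the 23704 genes measured in isolated bovine primordial follicles (PMF), 6 were all but unread in every library after 16 h of culture and were expressed in every library before it. They were TACR1, LIMS2, MUSTN1, TMEM61 and the small nucleolar RNA (snoRNA) genes LOC112446103 and LOC112444675. The genes were selected on their measured TPM (a level that allows for transcript length and library size), with under 1 TPM in each of the 3 T16 libraries and at least 5 TPM in each of the 3 T0 libraries. GPM6A also met both limits and is set aside. The description of the set as genes lost at T16 held without exception for TMEM61 alone among the 4 protein coding genes, because it had no read in any T16 library. TACR1, MUSTN1 and LIMS2 kept a few reads in 1, 2 and 3 T16 libraries, and the snoRNA genes rested on 1 read in each T0 library.

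T16 was PMF retrieved after 16 h of culture, and T0 was PMF retrieved after collection. By the methods of the study, the T0 follicles had recovered in medium containing insulin and FSH, and the composition of the T16 culture is not given in the sources used here. In both groups the follicles were isolated mechanically from bovine ovaries and pooled whole, so that each library mixes the RNA of oocytes with that of pre-granulosa cells and of any cells still attached. A low level in such a pool can reflect fewer cells of a type or less RNA per cell, and these cannot be told apart. Nothing in the sources says that the pools came from separate animals, so p-values measure the spread between pools.

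A primordial follicle is an arrested oocyte wrapped in flat pre-granulosa cells, and such follicles form the resting reserve of the ovary. The 4 protein coding genes belong to no common pathway. TACR1 is the receptor for the neuropeptide substance P and signals through Gq proteins. LIMS2, also called PINCH2, is a LIM domain adaptor that binds integrin-linked kinase (ILK) where cells attach to their matrix. MUSTN1 is a small nuclear protein known from developing muscle, cartilage and bone, and TMEM61 is a predicted membrane protein of unknown role. SnoRNAs guide chemical modification of other RNAs and are usually processed from the introns of host genes.

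The libraries held 22174653 to 36703016 estimated counts each. The oocyte markers were uneven in both groups, and T16 replicate 2 stood apart with 0.533 TPM of BMP15 and 1.34 TPM of GDF9, oocyte growth factors that reached 224 and 85.6 TPM in T16 replicate 1. The summed level of the 23 oocyte markers found ranged from 142 to 4316 TPM at T16 and from 1010 to 6314 TPM at T0. Without T16 replicate 2 the limits were met by 34 genes, all 6 members among them.

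TACR1 had the highest T0 level of the set in replicates 2 and 3. Its levels were 0, 0.306 and 0 TPM in T16 replicates 1, 2 and 3, against 6.62, 22.1 and 15.8 TPM in T0 replicates 1, 2 and 3. These levels came from 0, 25 and 0 counts at T16 and from 602, 2430 and 1300 counts at T0. All of the T16 reads were therefore in replicate 2, and the lowest T0 level was 21.6 times the highest T16 level. TACR1 averaged 0.102 TPM (SD 0.177) at T16 and 14.8 TPM (SD 7.80) at T0 (n = 3 each). With counts pooled over the 3 libraries and scaled to their totals, T16 held 0.503% of the T0 level, with an exact 95% interval of 0.325% to 0.743%. That is 199-fold lower (135 to 308), an interval that covers counting error only, as do the others given here. Without T16 replicate 2 there was no TACR1 read at T16, and without T16 replicate 3, which had none, T16 was 119-fold lower (80.2 to 183).

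LIMS2 was the member nearest to the T16 limit. Its T16 levels were 0.0369, 0.629 and 0.814 TPM from 1, 15 and 33 counts, against T0 levels of 5.32, 7.50 and 7.72 TPM from 141, 242 and 186 counts. T16 replicate 1 was the lowest library, and LIMS2 was read in every T16 library. It averaged 0.493 TPM (SD 0.406) at T16 and 6.85 TPM (SD 1.33) at T0 (n = 3 each). The pooled T16 level was 7.50% of that at T0 (95% interval 5.48% to 10.1%), or 13.3-fold lower (9.95 to 18.2), which made LIMS2 the least reduced of the 4 protein coding genes. Replicate 3 held 33 of the 49 counts at T16, and without it T16 was 24.3-fold lower (14.9 to 42.9).

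MUSTN1 was read in T16 replicates 2 and 3 and not in T16 replicate 1. T16 had 0, 0.462 and 0.628 TPM from 0, 3 and 7 counts, and T0 had 8.08, 15.0 and 12.4 TPM from 59, 133 and 82 counts. Its transcript is 629 bases long, so a level of several TPM rests on fewer reads than it does for TACR1, whose transcript has 5657 bases. MUSTN1 averaged 0.364 TPM (SD 0.326) at T16 and 11.8 TPM (SD 3.50) at T0 (n = 3 each). The pooled T16 level was 3.18% of that at T0 (95% interval 1.51% to 5.94%), or 31.5-fold lower (16.8 to 66.3). Of the 10 counts at T16, 7 were in replicate 3, and without that library T16 was 62.5-fold lower (21.2 to 305), from 3 counts.

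TMEM61 was read only at T0. It had 0 counts in each T16 library, against 134, 195 and 84 counts at T0, which gave 7.68, 9.24 and 5.31 TPM. The T0 average was 7.41 TPM (SD 1.98, n = 3). Had the T16 group held 3 counts in all, the floor used here, TMEM61 would have been 158-fold lower at T16. With 0 counts, the exact 95% interval of the T16 level reached up to 0.781% of that at T0, or 128-fold lower. Without T16 replicate 3 it reached up to 1.31%. In single T16 libraries, 3 counts would have been 0.169, 0.192 and 0.113 TPM, well under the limit of 1 TPM.

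**Figure D1:**
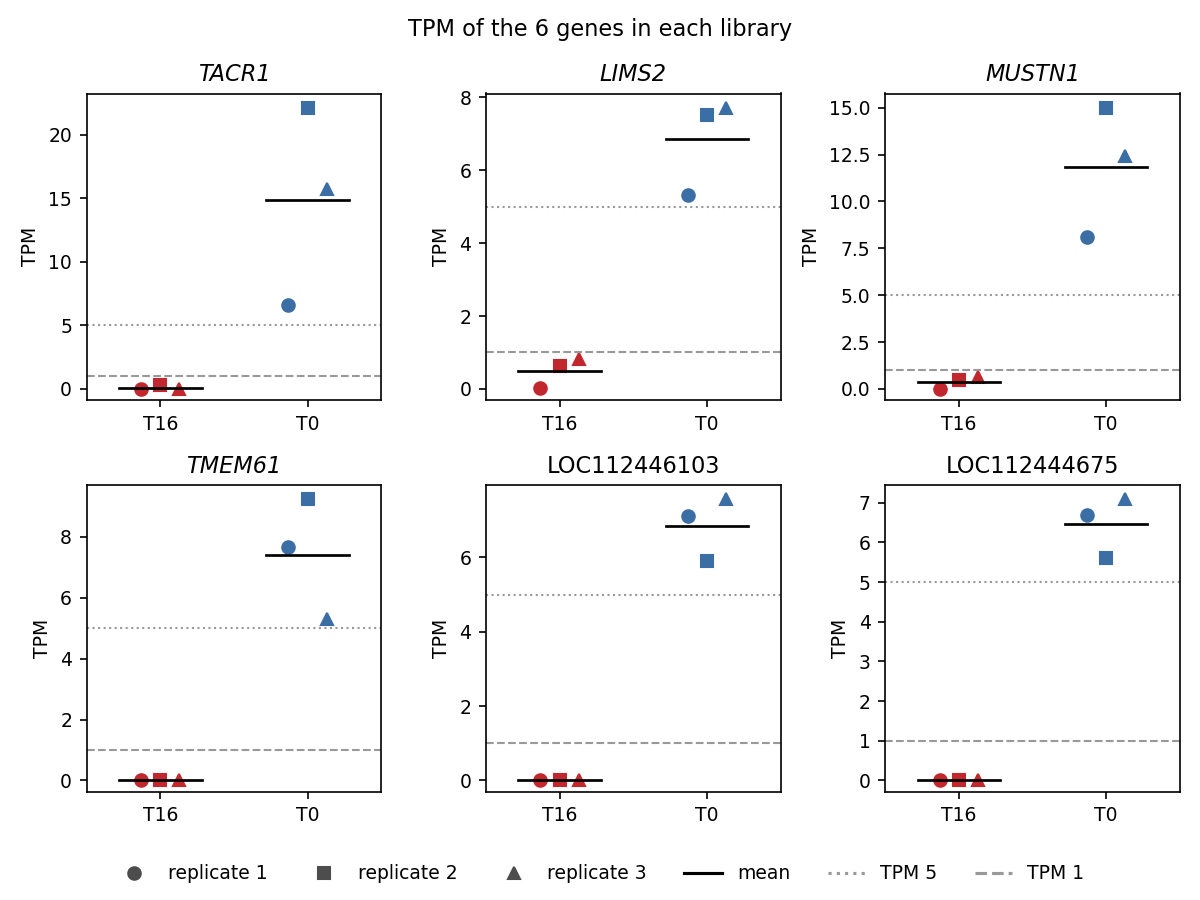
TPM of the 6 genes in the 3 T16 libraries (left of each panel) and the 3 T0 libraries (right); symbols are replicates, horizontal bars are means, and the dotted and dashed lines mark 5 and 1 TPM. The T16 points lie between 0 and 0.814 TPM, and the T0 points between 5.31 and 22.1 TPM, as the choice of the genes requires.

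The snoRNA genes met the limits on single reads. LOC112446103 had 0 counts in each T16 library and 1 count in each T0 library, which gave 7.11, 5.89 and 7.57 TPM in T0 replicates 1, 2 and 3. LOC112444675 likewise had 0 counts in each T16 library and 1 count in each T0 library, which gave 6.69, 5.62 and 7.09 TPM. The annotated RNAs are 70 and 73 bases long, and Salmon gave them effective lengths (the number of positions at which a fragment could start) of 8.48 to 9.37 bases at T0, so that 1 read alone was worth over 5 TPM. At T16 1 read would have been worth 4.41 to 7.80 TPM. A single read in any T16 library would thus have removed either gene, and with 3 reads in all at T0 no difference between T16 and T0 was detectable at this depth. No fold change is given for them. Libraries were primed by a kit that copies polyadenylated RNA, and mature snoRNAs have no poly(A) tail. LOC112444675 lies inside FRG1, a gene linked to RNA processing, with 213, 64.6 and 78.3 TPM at T16 and 69.2, 157 and 183 TPM at T0. FRG1 was thus expressed in every library, and its levels overlapped between the groups.

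**Figure D2:**
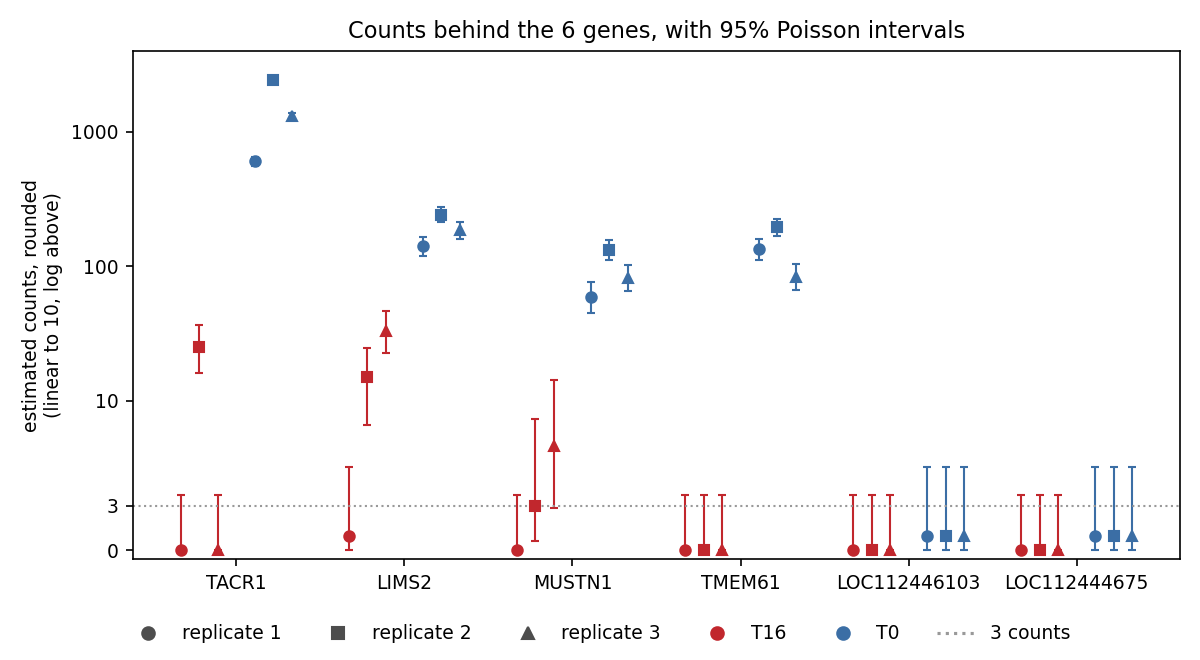
Estimated counts, rounded, behind the 6 genes in each T16 library (red) and T0 library (blue), on an axis that is linear to 10 and logarithmic above; bars are exact 95% Poisson intervals and the dotted line marks 3 counts. The 4 protein coding genes have 59 to 2430 counts in the T0 libraries, whereas each snoRNA gene has 1.

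Membership is a description of these 6 libraries and carries no test. Of the 4 members with enough counts, edgeR (quasi-likelihood test, FDR < 0.05) called 0 lower at T16, with 4 at an unadjusted p below 0.05, and DESeq2 called all 4 lower. Over the 14639 genes tested, edgeR called 0.00683% lower and DESeq2 2.96%, and 5.14% were lower at an unadjusted p below 0.05. Every T16 library lay below every T0 library for the 4 members, and for 13% of all genes tested. The thresholds used the same contrast, so nothing is read from these counts.

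Near-complete absence after culture was rare among the genes expressed at T0. At T0 8666 genes had at least 5 TPM in each library. The highest T16 level of these was below 1 TPM for 7 genes (the 6 genes and GPM6A, 0.0808%), between 1 and 2 TPM for 16, and between 2 and 5 TPM for 114. The other 8529 (98.4%) reached 5 TPM or more in at least 1 T16 library. The opposite pattern, under 1 TPM in each T0 library and at least 5 TPM in each T16 library, was met by 18 genes, 13 of which had at least 10 counts in each T16 library.

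The 6 genes are set beside the 8666 genes expressed at T0 in level and in gene structure, as description only. Their middle level was low, with a median of 7.59 TPM at T0, against 36.3 TPM over the 8666 genes. The limits used the T0 level, so nothing is read from this difference. Of the 6 genes, 5 had 1 annotated transcript, both snoRNA genes among them, against 42.5% of the 8666. The snoRNA genes made up 2 of the 6, against 24 genes (0.277%) of the 8666.

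Genes just outside the limits showed how narrow the selection was. On the T0 side, CD177, a surface protein of neutrophils, had 0.0683, 0.0252 and 0.0543 TPM at T16 and 4.76, 66.1 and 20.7 TPM at T0. Its T0 level in replicate 2 was above that of every member, and replicate 1 alone kept it out. DIPK1B, a gene of the FAM69 family of protein kinase-like proteins, had 0.509, 0 and 0 TPM at T16 and 4.70, 15.2 and 12.2 TPM at T0. The snoRNA gene LOC112443269, with 0 TPM in each T16 library and 4.71, 8.12 and 13.0 TPM at T0, rested on 1, 2 and 2 T0 counts. On the T16 side, PTH1R, the receptor for parathyroid hormone, had 1.21, 0.523 and 0 TPM at T16 and 5.80, 14.1 and 8.41 TPM at T0. CLEC11A, a secreted growth factor of bone and blood-forming cells, had 0, 1.01 and 1.22 TPM at T16 and 5.16, 11.0 and 7.67 TPM at T0. KLK12, a secreted serine protease, had 1.25, 0 and 0.297 TPM at T16 and 8.13, 34.5 and 28.3 TPM at T0. These levels lie next to those of the members just inside, of which TMEM61 and LIMS2 had the lowest T0 values (5.31 and 5.32 TPM) and LIMS2 and MUSTN1 the highest T16 values (0.814 and 0.628 TPM).

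**Figure D3:**
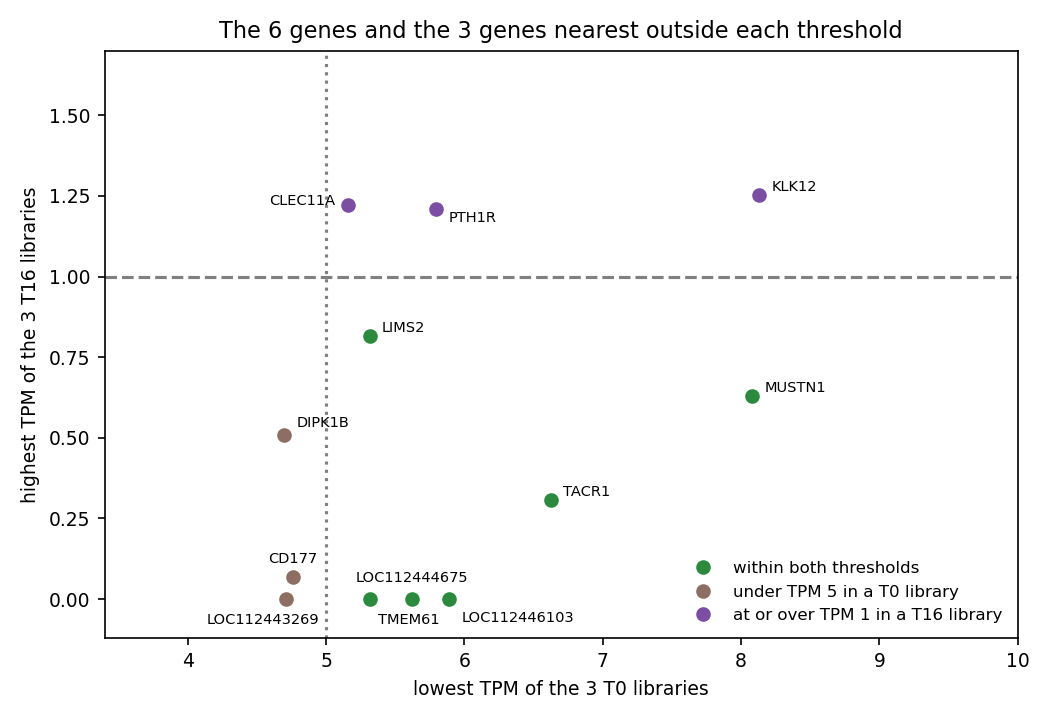
Lowest T0 level (horizontal axis, TPM) and highest T16 level (vertical axis, TPM) of the 6 genes and of the 3 genes nearest outside each limit; the dotted line marks 5 TPM and the dashed line 1 TPM. The 6 genes (green) lie at 5.31 to 8.08 TPM on the T0 axis, and KLK12 lies farthest right of the genes outside, at 8.13 TPM, above the T16 limit.

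Reads can also move between isoforms of a gene, which would make a single transcript vanish while the gene stays expressed. Among matched transcripts, 5 of the 6 genes had just 1, and unmatched transcripts could not be assigned to any gene. TACR1, MUSTN1, TMEM61 and both snoRNA genes have 1 matched transcript each. LIMS2 has 3, and every LIMS2 count at T16 and at T0 lay on the same transcript, the other 2 being at 0 in all 6 libraries. The match of TACR1 held by accession without its version, and with the version it had no match.

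Single transcripts passed the limits more often than genes. Of 30 transcripts that did, 6 were those of the 6 genes, 2 belonged to GPM6A, 7 could not be matched to a gene, and 15 belonged to 15 other genes. For 3 of these 15 genes the level of the whole gene was no lower at T16 than at T0. ACIN1, which acts in chromatin condensation and splicing, averaged 51.3 TPM (SD 5.25) at T16 and 29.7 TPM (SD 4.26) at T0 (n = 3 each), although a transcript holding 38.3% of its T0 level was at 0 in each T16 library. SCAF11, a splicing factor, averaged 19.9 TPM (SD 6.20) at T16 and 13.0 TPM (SD 3.18) at T0, and the transcript held 46.6%. CSNK1D, the casein kinase 1 delta gene, averaged 89.0 TPM (SD 33.2) at T16 and 86.3 TPM (SD 18.4) at T0, and the transcript held 12.8%. In these 3 genes the transcript was at 0 and the gene was not.

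For 7 of the 15 genes, the whole gene had a T16 mean under 20% of its T0 mean as well. The 15 genes were picked by a transcript within both limits, so a part of this difference follows from the choice. That transcript held from 7.57% (PLEKHF1) to 68.2% (GPC5) of the T0 level of these 7 genes. The share of all genes under 20% was not counted. NRXN2, a synaptic adhesion protein, had 1.36, 0.220 and 0.231 TPM at T16 and 14.8, 53.5 and 41.0 TPM at T0. NR1H4, the bile acid receptor FXR, had 3.53, 0.777 and 1.14 TPM at T16 and 17.0, 85.4 and 88.6 TPM at T0. NR4A1, an immediate early nuclear receptor, had 13.8, 7.44 and 7.83 TPM at T16 and 75.5, 136 and 140 TPM at T0. The other 4 were PLEKHF1, GPC5, LOC507615 and KLK12. In all, 9 of the 15 genes stayed above 1 TPM in each T16 library. The 7 unmatched transcripts had at least 10 counts in each T0 library, and they were not named here.

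**Figure D4:**
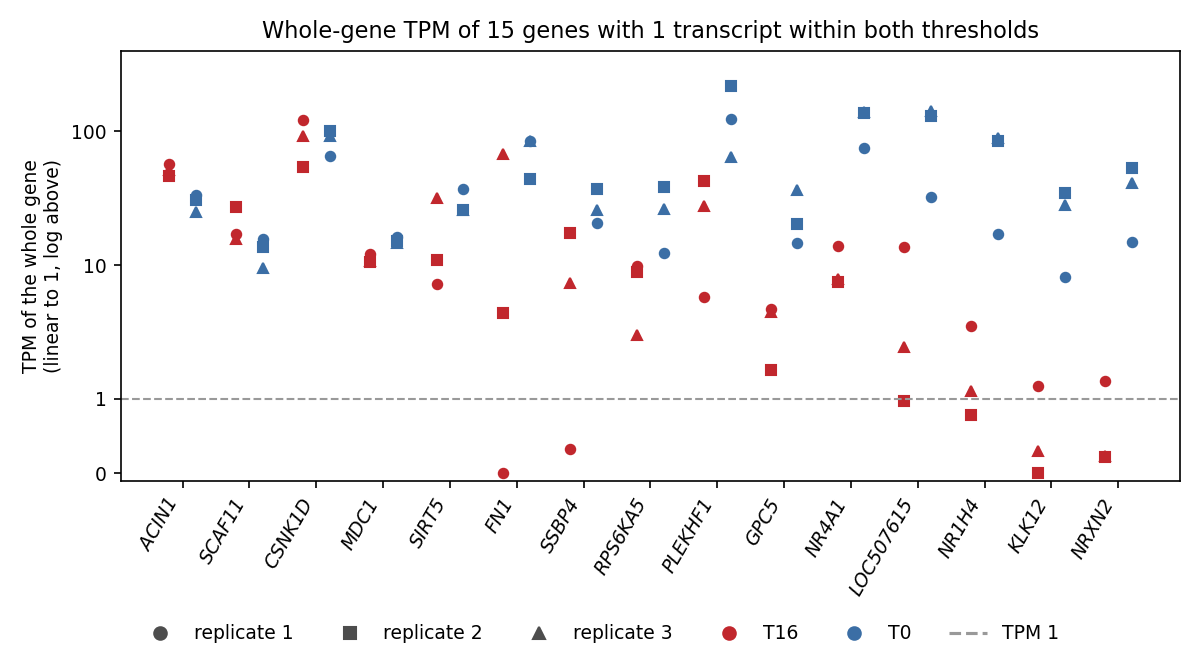
Level of the whole gene (TPM, linear to 1 and logarithmic above) in T16 (red) and T0 (blue) libraries for the 15 genes that had 1 transcript within both limits without being members; symbols are replicates and the dashed line marks 1 TPM. ACIN1 lies higher at T16 (46.1 to 56.6 TPM) than at T0 (25.1 to 33.4 TPM), whereas NRXN2 lies between 0.220 and 1.36 TPM at T16 and between 14.8 and 53.5 TPM at T0.

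The tested neighbours of TACR1 and LIMS2 were read in every library of both groups, whereas ITIH4, next to MUSTN1, had no T16 read. Levels of neighbours were not used in choosing the 6 genes. Of 12 adjacent genes, 11 had values and 6 had enough counts to test. edgeR called 0 of the 6, with 1 lower and 1 higher at an unadjusted p below 0.05, and DESeq2 called 1, ITIH4, lower. Over all genes tested, edgeR called 0.00683% lower and 0.0342% higher, and DESeq2 2.96% and 4.06%. At an unadjusted p below 0.05, 5.14% were lower and 8.61% higher. Beside TACR1, FHL2, a LIM domain cofactor, had 350, 317 and 427 TPM at T16 and 190, 77.0 and 37.6 TPM at T0. The groups did not overlap, and the log2 fold change was 1.89 (SE 0.66, edgeR adjusted p = 0.263), while 10.8% of all genes tested had every T16 library above every T0 library. POLE4, a subunit of DNA polymerase epsilon on the other side of TACR1, had 256, 284 and 380 TPM at T16 and 358, 497 and 504 TPM at T0 (log2 fold change -0.40, SE 0.34, edgeR adjusted p = 0.683). Both genes beside TACR1 thus had at least 37.6 TPM in every library.

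MUSTN1 lay beside STIMATE, a regulator of calcium entry, which had 17.6, 9.61 and 7.07 TPM at T16 and 4.69, 17.2 and 13.8 TPM at T0. Its log2 fold change was 0.07 (SE 0.63, edgeR adjusted p = 0.982), and its sign turned under other settings. On the other side lay ITIH4, a heavy chain of the inter-alpha-trypsin inhibitors, with 0 counts in each T16 library and 140, 14 and 37 counts at T0, which gave 3.08, 0.268 and 0.919 TPM. At T0 it was highest in replicate 1, where MUSTN1 was lowest. Its edgeR adjusted p was 0.147 and its DESeq2 adjusted p was 0.00243. The next gene along, ITIH3, named after its values were seen, had 1, 1 and 2 counts at T16 and 28, 216 and 265 counts at T0 (0.0215, 0.0249 and 0.0238 TPM, against 0.615, 3.99 and 6.67 TPM). At T0 ITIH3 was lowest in replicate 1, as MUSTN1 was, and highest in replicate 3, where MUSTN1 was not. Its edgeR adjusted p was 0.0921 and its DESeq2 adjusted p was 8.00e-06. SFMBT1, at the same distance on the other side of MUSTN1, had 7.24, 3.22 and 5.38 TPM at T16 and 7.36, 4.37 and 5.15 TPM at T0 (log2 fold change 0.01, SE 0.59, edgeR adjusted p = 0.996). Over the 3 nearest genes on each side of the 6 genes, 22 of 36 were tested and edgeR called 0, with 2 lower and 3 higher at an unadjusted p below 0.05. DESeq2 called ITIH4 and ITIH3 lower, and IWS1 near LIMS2 and USP24 near TMEM61, also named after their values were seen, higher. Over all genes tested, 5.14% were lower and 8.61% higher at an unadjusted p below 0.05, and DESeq2 called 2.96% lower and 4.06% higher.

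LIMS2 lay beside SFT2D3, a vesicle transport gene with 7.71, 6.61 and 6.86 TPM at T16 and 5.69, 14.6 and 8.51 TPM at T0 (log2 fold change -0.29, SE 0.44, edgeR adjusted p = 0.842). It overlaps GPR17, a receptor gene with 2, 1 and 0 counts at T16 and 5, 7 and 8 counts at T0, and reads of the shared stretch cannot be told apart without strand. Of the neighbours of TMEM61, BSND was at 0 in all 6 libraries. The neighbours of the snoRNA genes were themselves snoRNA genes or a pseudogene, none had over 7 counts in a library, and none was tested.

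No ligand or G protein gene of TACR1 passed the edgeR test in either direction, and few of all genes tested did. The list held 8 genes of the tachykinins, their receptors, the G proteins of TACR1 and the peptidase MME. It was written with the members known, and 5 genes were tested. edgeR called 0 in either direction, with 2 higher and 0 lower at an unadjusted p below 0.05, and DESeq2 called 0. Over all genes tested, edgeR called 0.00683% lower and 0.0342% higher, and DESeq2 2.96% and 4.06%. At an unadjusted p below 0.05, 5.14% were lower and 8.61% higher. TAC1, the precursor of substance P, had 1.35, 0.613 and 3.84 TPM at T16 and 0, 0.288 and 0.153 TPM at T0. The groups did not overlap, but TAC1 counts at T0 were 0, 6 and 2, and the log2 fold change of 4.05 (SE 1.51) had an edgeR adjusted p of 0.293. TAC3, the precursor of neurokinin B, had 13.96, 40.7 and 105 TPM at T16 and 137, 51.1 and 30.1 TPM at T0. Of the other receptors, TACR2 had 1.89, 1.89 and 1.52 TPM at T16 and 0.781, 2.73 and 4.07 TPM at T0, and TACR3 was at 0 in all 6 libraries. MME (neprilysin), which degrades substance P, had 1, 114 and 97 counts at T16 and 0 counts in each T0 library, too few libraries for the test. The median log2 fold change of the 5 genes tested was 0.89, against -0.08 over all genes tested.

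The G protein genes through which TACR1 signals were expressed throughout. GNAQ had 41.2, 57.3 and 30.2 TPM at T16 and 29.4, 25.1 and 17.8 TPM at T0. GNA11 had 44.2, 47.3 and 53.1 TPM at T16 and 26.9, 31.3 and 21.9 TPM at T0. Every T16 library was above every T0 library for both genes, as for 10.8% of all genes tested. In the wider list of G protein coupled receptors and their ligands, 15 of 32 genes were tested. edgeR called 0 of them, with 2 lower and 2 higher at an unadjusted p below 0.05, and DESeq2 called 2 lower, TACR1 among them, and 2 higher. Over all genes tested, edgeR called 0.00683% lower and 0.0342% higher, and DESeq2 2.96% and 4.06%. At an unadjusted p below 0.05, 5.14% were lower and 8.61% higher. The median log2 fold change of this list was -0.20, against -0.08 over all genes tested.

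LIMS1, ILK, PARVA, RSU1 and NCK2, of the complex to which LIMS2 belongs, and the kindlin gene FERMT2 had at least 14.6 TPM in every T16 library. In every T0 library they had at least 19.2 TPM. These genes were named for their levels, which others of the list did not reach in every library. The parvin PARVB was low in both groups, with 1.695, 0 and 0 TPM at T16 and 0, 0.660 and 0.628 TPM at T0. The ILK, PINCH and parvin complex with the kindlins, which links integrins to actin, was a list of 10 genes written with the members known, and all 10 were tested. edgeR called 0, with 2 higher and 0 lower at an unadjusted p below 0.05, and DESeq2 called the kindlin genes FERMT1 and FERMT2 higher. Over all genes tested, edgeR called 0.00683% lower and 0.0342% higher, and DESeq2 2.96% and 4.06%. At an unadjusted p below 0.05, 5.14% were lower and 8.61% higher. LIMS1, the close relative that binds ILK in place of LIMS2, had 24.8, 14.6 and 33.5 TPM at T16 and 50.8, 38.5 and 32.3 TPM at T0. Its log2 fold change was -0.89 (SE 0.52, edgeR adjusted p = 0.520). The groups overlapped in TPM, whereas in counts scaled for library size every T16 library lay below every T0 library, as for 13% of all genes tested. The RefSeq table gives LIMS1 also as another name of LIMS2. Whether reads of similar sequence were split between the 2 genes was not tested.

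ILK had 81.6, 283 and 184 TPM at T16 and 260, 123 and 85.2 TPM at T0, and the parvin PARVA had 113, 218 and 190 TPM at T16 and 184, 97.0 and 71.3 TPM at T0. Both overlapped between the groups. FERMT2 had 103, 64.2 and 94.6 TPM at T16 and 28.4, 34.3 and 55.6 TPM at T0 (log2 fold change 1.40, SE 0.36, edgeR adjusted p = 0.145, DESeq2 adjusted p = 0.0385). FERMT1 had 20.7, 21.5 and 5.22 TPM at T16 and 4.01, 1.68 and 3.25 TPM at T0 (log2 fold change 2.38, SE 0.64, edgeR adjusted p = 0.158, DESeq2 adjusted p = 0.00910). In both kindlin genes every T16 library was above every T0 library, as for 10.8% of all genes tested. The median log2 fold change of the 10 genes was 0.66, against -0.08 over all genes tested.

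**Figure D5:**
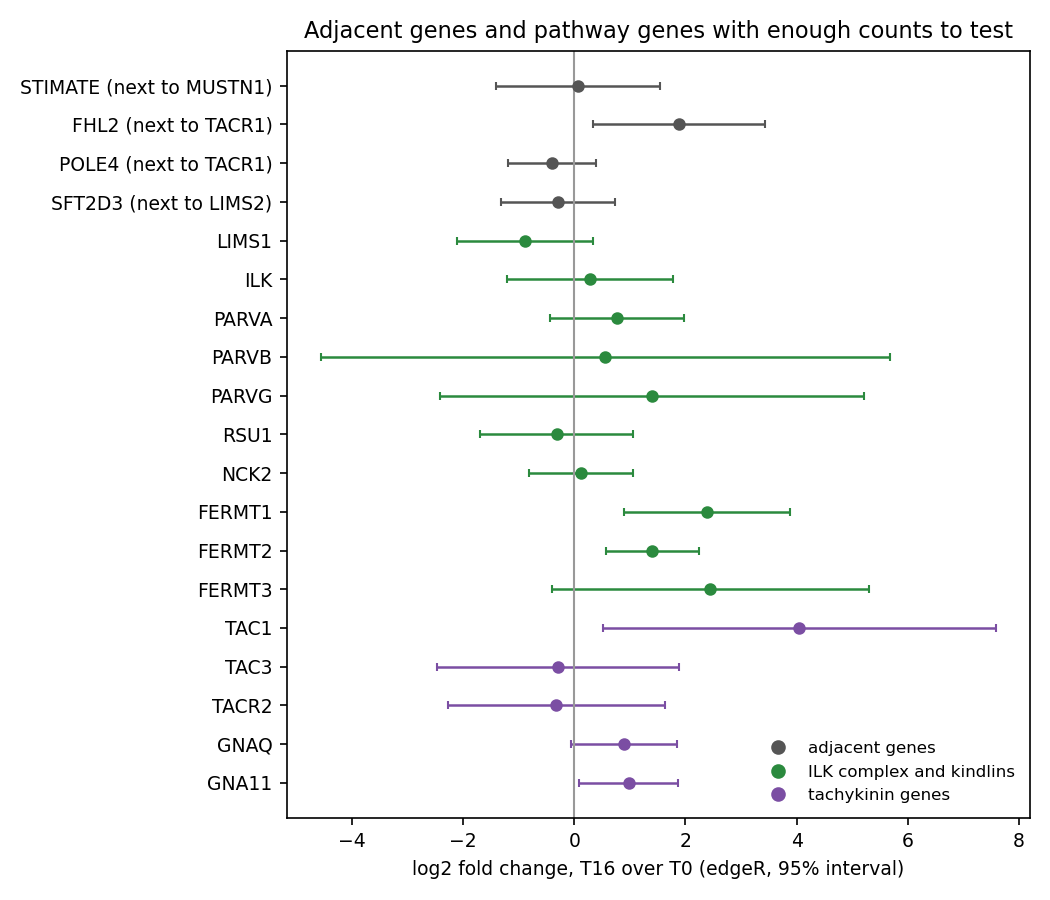
Log2 fold change of T16 over T0 (edgeR, bars are unadjusted 95% intervals) for tested adjacent genes and the genes of the ILK complex and tachykinin lists. ITIH4 is left out because it had no count at T16. FHL2 lies at 1.89, FERMT1 at 2.38 and TAC1 at 4.05, and no gene shown passed an edgeR FDR of 0.05.

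Markers of other cell types also differed between the libraries. The 13 smooth muscle and pericyte markers, all of them found, summed to 52.7 to 441 TPM at T16 and 421 to 3379 TPM at T0, and T16 replicate 2 (441 TPM) was above T0 replicate 3 (421 TPM). Of the 11 tested, edgeR called 0, with 2 lower at an unadjusted p below 0.05, and DESeq2 called 0. The shares lower over all genes tested were 0.00683%, 5.14% and 2.96%. In every T16 library 3 of the 11 were below every T0 library, against 13% of all genes tested. MYH11, smooth muscle myosin, had 0, 9.94 and 0.998 TPM at T16 and 40.2, 119 and 54.3 TPM at T0, and ACTA2, smooth muscle actin, had 0, 8.68 and 11.6 TPM at T16 and 74.3, 85.0 and 17.4 TPM at T0. CSRP3, a LIM protein of muscle, made up most of the sum in every library but T16 replicate 1, with 0.461, 306 and 315 TPM at T16 and 2919, 841 and 296 TPM at T0. MYH11, like TACR1 and MUSTN1, was lowest in T0 replicate 1 and highest in T0 replicate 2. TAGLN, CNN1 and CSRP3 of the same list had another order, highest in T0 replicate 1 and lowest in T0 replicate 3. Not all markers were lower at T16. CSPG4 averaged 3.57 TPM at T16 and 0.659 TPM at T0, PDGFRB 2.86 and 2.24 TPM, and MYLK 16.8 and 14.9 TPM. The part of these cells in the levels of the 6 genes was not tested.

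Summed levels of stroma, endothelial and granulosa markers also overlapped between the groups. The stroma markers summed to 734 to 2763 TPM at T16 and 2619 to 5703 TPM at T0, the endothelial markers to 59.5 to 132 TPM at T16 and 112 to 436 TPM at T0, and the granulosa markers to 1432 to 9727 TPM at T16 and 1805 to 10230 TPM at T0. None of these lists held a member of the set. The granulosa sum included KRT8, a keratin, with 241, 6286 and 1908 TPM at T16 and 7671, 2383 and 419 TPM at T0. Single granulosa genes, again named after their values were seen, went both ways. FOXL2, a transcription factor of granulosa cells, had 3.37, 20.1 and 15.1 TPM at T16 and 38.5, 141 and 37.3 TPM at T0. FSHR, the FSH receptor, had 1.15, 3.46 and 0 TPM at T16 and 10.8, 45.6 and 28.3 TPM at T0. FST, the follistatin gene, was higher at T16, with 259, 513 and 288 TPM against 89.6, 90.0 and 24.4 TPM at T0. KITLG averaged 68.8 TPM at T16 and 47.1 TPM at T0. Of the 23 granulosa markers tested, 5 were below and 1 was above every T0 library in every T16 library, against 13% and 10.8% of all genes tested. edgeR called 0 of them, with 4 lower and 1 higher at an unadjusted p below 0.05, and DESeq2 called 3 lower and 1 higher. Over all genes tested, edgeR called 0.00683% lower and 0.0342% higher, and DESeq2 2.96% and 4.06%. At an unadjusted p below 0.05, 5.14% were lower and 8.61% higher. Their part in the levels of the 6 genes was not tested.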

How the data were processed

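RNA of pooled PMF was measured in 3 T16 and 3 T0 libraries, prepared with a low-input SMART-Seq kit. Trim Galore, fastp and Salmon (ARS-UCD1.3 transcripts) were run by the authors, who deposited estimated counts and TPM per transcript. Both were summed to genes with RefSeq gene names of ARS-UCD2.0, an assembly used here for names and gene order only. Of 76123 transcripts, 50205 (66.0%) matched by accession without version. Unmatched transcripts, with 9.74% to 10.9% of a library's counts, were left out of gene sums. Summed counts were rounded to whole numbers.

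Differences between T16 and T0 were tested on the deposited counts in edgeR 4.0.16 under R 4.3.3 (TMM, quasi-likelihood, Benjamini-Hochberg FDR < 0.05). The 14639 genes tested had a minimum of 10 counts in 3 or more libraries. DESeq2 1.42.0 was an alternative. The procedure was run on simulated data, at the spread estimated from these data and at a low spread. A pass mark was set for edgeR at the low spread only. It does not show how many real differences edgeR finds at the spread of these data. Intervals of a ratio of pooled counts are exact, and the floor was 3 counts. Members, lists and tests were chosen with earlier results of these data known. Named genes were the members, the 3 genes nearest outside each limit, adjacent genes and list genes, a few of which are left unreported; transcripts' genes were named after their values were seen. Alternatives were other limits, units, filters, scalings, a replicate block, length offsets and each library left out.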

Additional observations from a re-analysis of the deposited data

How the results depend on the processing

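The number of genes within both limits depended on the limits and on single libraries. It was 6 as reported, 24 with at least 3 TPM at T0, 0 with at least 10 TPM at T0, 4 with under 0.5 TPM at T16, 22 with under 2 TPM at T16, and 4 with at least 10 counts in each T0 library. CPM in place of TPM gave 10 genes, of which LIMS2 alone was among the 6, and matching with the accession's version gave 7, without TACR1. Single matched transcripts gave 21, unmatched ones 7, and GPM6A kept in, an alternative added after the data were seen, 7. Leaving out each library in turn gave 9 to 38 genes, always with all 6 (38 without T0 replicate 1, 34 without T16 replicate 2). In edgeR, 1 gene was lower and 5 were higher at T16. DESeq2 called 433 lower and 594 higher, no count filter gave 4 lower, and leaving out each library gave 0 to 1 lower and 0 to 2 higher, with 1038 to 2379 genes at an unadjusted p below 0.05. With the replicate number as a block, edgeR called 0 lower and 0 higher, with 1385 at an unadjusted p below 0.05. Samples of the same number correlated at -0.54, -0.12 and -0.05 in their deviations. With 3 libraries per group and uneven oocyte content, this cannot tell whether samples of the same number shared a source. Of the members, edgeR called 0 and DESeq2 4, and MUSTN1 and TMEM61 had too few counts to test without any 1 T0 library. Of the adjacent genes, edgeR called 0 lower and DESeq2 1. The log2 fold change of STIMATE turned to -0.0058 with DESeq2 size factors, -0.0061 in DESeq2, -0.0508 without a count filter and -0.0483 with length offsets, and ranged from -0.43 to 0.27 over the libraries left out. With each library left out in turn, an alternative added after the data were seen, the pooled T16 level was 4.11% to 10.7% of that at T0 for LIMS2, 1.60% to 4.64% for MUSTN1 and 0 to 0.844% for TACR1. The causes were not tested. Depth limits the snoRNA genes, at 1 count per T0 library, and the T16 levels of MUSTN1, at up to 7 counts.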

Other observations

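Several genes stood just outside the limits, and those given here were chosen after their values were seen. CYS1, a protein of the primary cilium, had 0.0258, 1.41 and 1.41 TPM at T16 and 13.8, 47.0 and 34.1 TPM at T0. RANBP3L had 0 TPM in each T16 library, as TMEM61 did, and 3.99, 8.83 and 11.2 TPM at T0 from 141, 368 and 370 counts. TRIL, a regulator of Toll-like receptor signalling, had 0.0838, 1.53 and 0 TPM at T16 and 35.0, 20.3 and 5.63 TPM at T0, and it was highest in T0 replicate 1, where TACR1, LIMS2 and MUSTN1 were lowest.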
